A study of Mus musculus with 15 samples.

Results

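The genes described here are 10 transcription factor genes of the AP-1 and BATF group, namely Fos, Fosb, Fosl1, Fosl2, Jun, Junb, Jund, Batf, Batf3 and Atf3. They were chosen by gene name, with earlier results of these data known. All 10 were found among the 56748 genes of the deposited tables and among the 15619 genes with enough reads to be tested. RNA was sequenced from mouse T helper 2 (Th2) cells, the helper T cells that make type 2 cytokines, which had been grown in culture from naive CD4+ T cells taken from the spleens of female mice. Control cells came from Asb2fl/fl mice, whose floxed Asb2 alleles are intact, and conditional knockout (cKO) cells from VEC-Cre;Asb2fl/fl mice, in which the VE-cadherin promoter drives Cre recombinase. All cells had already been activated through CD3ε and CD28 for polarisation, so the non-stimulated cells were rested Th2 cells and not naive cells. Stimulated cells received coated anti-CD3ε and soluble anti-CD28 for 24 h. Of the control libraries, 3 were non-stimulated and 5 stimulated, and of the cKO libraries, 3 and 4. The age of the mice was not given in the sources used here, and neither was whether each library came from its own animal, so the p-values rest on a spread among libraries that can be technical.

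AP-1 is a dimer of basic leucine zipper (bZIP) proteins. Jun proteins pair with each other or with Fos proteins, whereas Fos proteins need a Jun partner to bind DNA stably. BATF and BATF3 lack the activation domains of Fos proteins, pair with Jun proteins and bind with IRF4 or IRF8 at composite sites. In T cells, receptor signalling through MAP kinases induces several of these genes within minutes, and AP-1 acts together with NFAT at cytokine genes.

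The libraries held between 17.1 and 24.2 M estimated counts each. Levels of a gene between groups are given as CPM (counts scaled to the library's total) on library sizes scaled by edgeR's TMM method, and levels between genes as the authors' TPM, which also allow for transcript length. Asb2 was at 36.7 ± 12.2 CPM in non-stimulated control cells (SD, n = 3) and 19.2 ± 5.62 CPM in non-stimulated cKO cells (n = 3), and at 33.5 ± 2.72 CPM (n = 5) and 9.49 ± 0.115 CPM (n = 4) after stimulation. The 8 summed CD4 T cell markers ran from 2465 to 2820 CPM in the non-stimulated libraries and from 2046 to 2386 CPM in the stimulated ones, and 5 of the 8 were called lower and 1 higher after stimulation in both genotypes. Stimulated cKO replicate 3 stood apart, with 9.43% of its counts from mitochondrial genes against 4.36% to 6.24% in the other libraries. In this RNA from many cells, fewer cells expressing a gene and less RNA per cell cannot be told apart.

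Promoters are shown as examples for 3 genes that rose after stimulation, which hold one or both of the motifs marked, and for Jund, which fell and holds neither. RefSeq held promoters for 9 of the 10 genes on the GRCm38.p6 build, from 250 bases before to 50 bases after the annotated start. The build differs from the GRCm39 build of the files, so the sequences were matched by symbol alone. Those printed lie at chr12:85473640-85473939 on the plus strand for Fos, chr8:84978699-84978998 on the minus strand for Junb, chr1:191183284-191183583 on the minus strand for Atf3 and chr8:70697489-70697788 on the plus strand for Jund. Each is written 5′ to 3′, and capitals mark the cyclic AMP response element (CRE) core TGACG on either strand and the TATA box TATAAA on either strand.
Fos: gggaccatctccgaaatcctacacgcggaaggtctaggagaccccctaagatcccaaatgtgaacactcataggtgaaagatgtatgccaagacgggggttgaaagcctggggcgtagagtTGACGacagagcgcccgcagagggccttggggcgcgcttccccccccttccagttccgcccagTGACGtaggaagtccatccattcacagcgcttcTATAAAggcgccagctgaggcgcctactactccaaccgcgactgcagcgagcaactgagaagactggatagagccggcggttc
Junb: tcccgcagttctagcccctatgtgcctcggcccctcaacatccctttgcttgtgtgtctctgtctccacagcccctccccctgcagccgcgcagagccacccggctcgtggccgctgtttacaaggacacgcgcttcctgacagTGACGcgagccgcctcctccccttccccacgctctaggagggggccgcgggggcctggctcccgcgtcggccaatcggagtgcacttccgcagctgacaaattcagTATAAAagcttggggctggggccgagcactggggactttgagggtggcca
Atf3: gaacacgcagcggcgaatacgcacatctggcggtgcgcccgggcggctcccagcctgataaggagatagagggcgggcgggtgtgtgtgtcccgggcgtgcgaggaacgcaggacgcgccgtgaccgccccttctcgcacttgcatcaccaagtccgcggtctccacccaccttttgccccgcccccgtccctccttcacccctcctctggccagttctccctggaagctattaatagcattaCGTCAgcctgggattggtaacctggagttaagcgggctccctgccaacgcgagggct
Jund: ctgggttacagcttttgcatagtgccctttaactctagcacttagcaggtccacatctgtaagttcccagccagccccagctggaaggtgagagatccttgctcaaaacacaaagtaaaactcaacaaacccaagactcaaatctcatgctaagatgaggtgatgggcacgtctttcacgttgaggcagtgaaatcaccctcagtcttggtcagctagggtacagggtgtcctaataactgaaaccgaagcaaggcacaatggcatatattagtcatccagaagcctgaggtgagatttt

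The Fos promoter held TGACG with its leftmost base at positions -129 and -66 and TATAAA at -33, counted from the annotated start. In Junb these lay at -106 and 1, so that TATAAA began at the annotated start itself. Atf3 held the TGACG core on the opposite strand at -7 and no TATAAA, and Jund held neither. Jun and Batf3, which rose, also held neither, and Fosb, which did not pass the test, held TGACG. Over the 9 promoters, TGACG was found in 5 (Fos, Fosb, Junb, Batf and Atf3), against 20.8% of 32851 promoters of the same length. TATAAA was found in 2, Fos and Junb, against 13.6% of all promoters. These 2 motifs were chosen after the sequences had been seen. The AP-1 site, TGACTCA or TGAGTCA on either strand, was in 0 of the 9, against 5.2% of all promoters. The full CRE TGACGTCA, which contains TGACG, was in 0 of 9 (1.79% of all), and the CArG box bound by SRF was also in 0 of 9 (1.63%). The NFAT core GGAAA was in 3, namely Jun, Batf and Batf3, against 61.3% of all. A match is a string of letters in this window and no evidence of binding. Variants of these strings, and sites outside the window, were not counted, so a count of 0 does not show that a gene lacks such a site.

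After 24 h of stimulation, 7 of the 10 genes rose in control cells (Fos, Fosl1, Jun, Junb, Batf, Batf3 and Atf3), 1 fell (Jund) and 2 did not pass the test (Fosb and Fosl2). Over all genes tested in control cells, 25.4% were called higher and 25.2% lower. The same 7 genes rose in cKO cells, Jund again fell, and Fosb and Fosl2 again did not pass, against 26.7% of all genes called higher and 27.1% lower. The median log2 fold change of the 10 genes was 0.89 in control cells and 1.21 in cKO cells, where that of all genes was 0.00 and -0.01. Calls are from edgeR's quasi-likelihood test at a Benjamini-Hochberg adjusted p under 0.05 over all genes. Atf3, Fosl1 and Fos had the largest changes, of 6.65-fold to 8.60-fold in control cells.

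**Figure D1:**
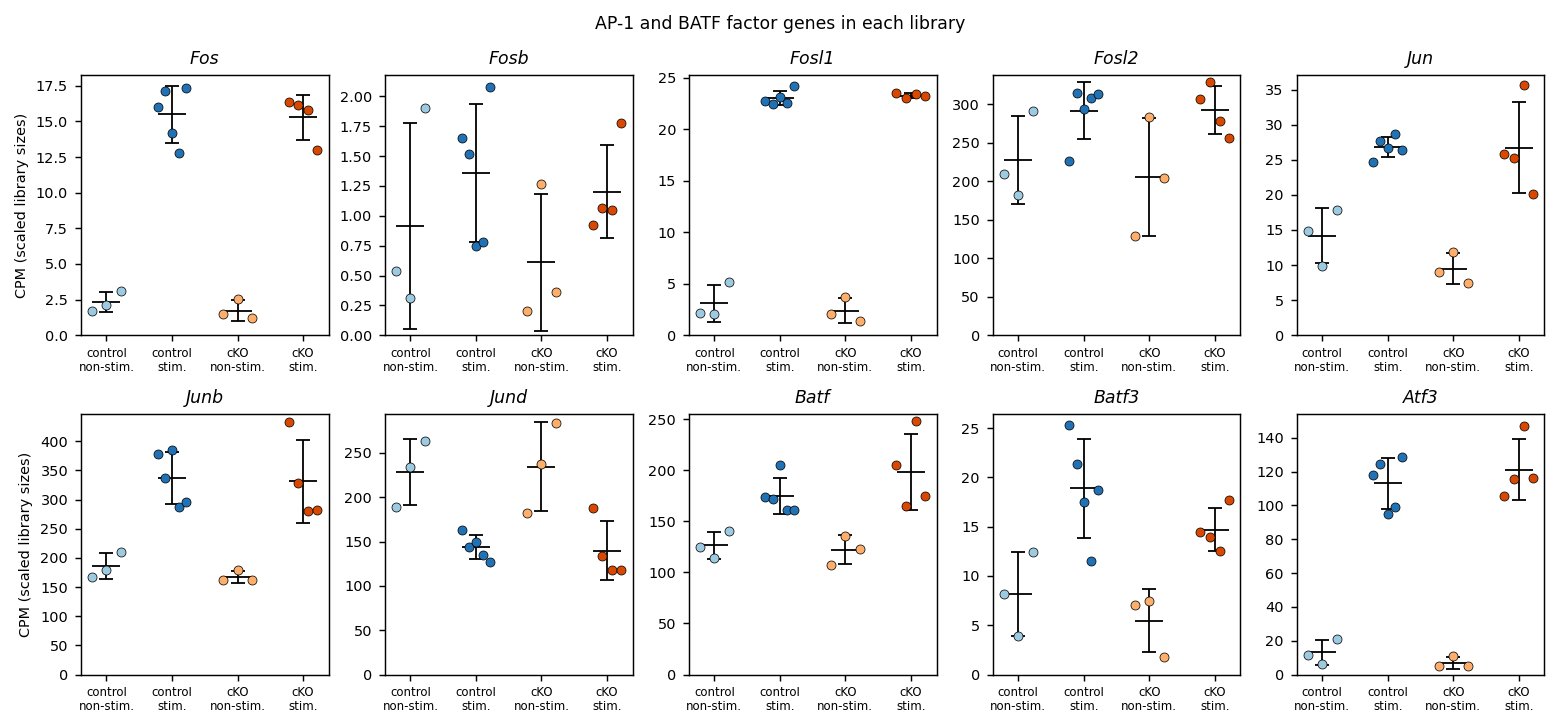
CPM on scaled library sizes (vertical axis, linear, from 0) of each of the 10 genes in the 4 groups; points are libraries in replicate order, the long dash is the mean and the bars are 1 SD (n = 3, 5, 3 and 4). Fos, Fosl1 and Atf3 were far higher in all 9 stimulated libraries than in any of the 6 non-stimulated ones, Jund was lower in most stimulated libraries, and the Fosb and Fosl2 groups overlapped.

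Of the Fos family, Fos (ENSMUSG00000021250) encodes c-Fos, the classic immediate early member. In non-stimulated control cells it was at 1.71, 2.12 and 3.07 CPM, and in the 5 stimulated control libraries at 12.8 to 17.3 CPM with a median of 16.01. Levels in cKO cells lay at 1.48, 2.53 and 1.18 CPM without stimulation and at 16.3, 16.1, 15.8 and 13.0 CPM with it. Every stimulated library lay above every non-stimulated library in both genotypes. On the log2 scale its change was 2.73 ± 0.22 (SE) in control cells (adjusted p = 2.1e-08) and 3.15 ± 0.24 in cKO cells (adjusted p = 9.8e-09).

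Fosl1 (ENSMUSG00000024912) encodes Fra-1, a Fos protein without the C-terminal activation domain of c-Fos. It was at 2.14, 2.02 and 5.19 CPM in non-stimulated control cells and at 2.09, 3.75 and 1.36 CPM in non-stimulated cKO cells. After stimulation it was at 22.7, 22.5, 23.2, 22.5 and 24.2 CPM in control cells and at 23.5, 23.0, 23.4 and 23.2 CPM in cKO cells. The highest of these 9 libraries was 1.07 times the lowest in CPM, the narrowest spread of the 10 genes after stimulation. The 6 non-stimulated libraries differed by up to 3.81-fold. In TPM, Fosl1 ran from 10.3 to 16.1 over the stimulated libraries and Batf from 234 to 276. Fosl1 was thus not the narrowest in that unit. The log2 fold change of Fosl1 was 2.86 ± 0.28 in control cells (adjusted p = 6.0e-07) and 3.29 ± 0.30 in cKO cells (adjusted p = 2.7e-07).

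Fosl2 (ENSMUSG00000029135) encodes Fra-2 and was by far the most abundant Fos gene. Its CPM was 209, 182 and 291 in non-stimulated control cells, and 226, 314, 294, 308 and 312 after stimulation. In cKO cells it was 129, 283 and 204 without stimulation and 307, 328, 277 and 256 with it. The ranges overlapped in both genotypes. This gave a log2 fold change of 0.36 ± 0.21 in control cells (adjusted p = 0.17, 95% interval -0.09 to 0.80) and 0.51 ± 0.22 in cKO cells (adjusted p = 0.062). The call depended on single libraries and on the unit. Without non-stimulated control replicate 3 the log2 fold change in control cells was 0.58 (edgeR adjusted p = 0.047). Without non-stimulated cKO replicate 2 that in cKO cells was 0.81 (edgeR adjusted p = 0.0038). On log2(TPM + 0.1) with limma that in control cells was 0.66 (adjusted p = 0.032). In that unit the median of all genes was itself 0.14, against 0.00 on counts. DESeq2 also called Fosl2 in cKO cells, at 0.51 (adjusted p = 0.039).

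Fosb (ENSMUSG00000003545), another immediate early Fos gene, was near the limit of detection, with 4 to 44 estimated counts per library. It was at 0.535, 0.31 and 1.90 CPM in non-stimulated control cells and at 1.65, 1.52, 0.75, 0.781 and 2.08 CPM after stimulation. In cKO cells it was at 0.204, 1.27 and 0.363 CPM, and after stimulation at 0.924, 1.07, 1.05 and 1.77 CPM. Within each genotype 1 non-stimulated library reached the stimulated range. The estimated log2 fold change was 0.52 ± 0.56 in control cells (adjusted p = 0.46) and 0.99 ± 0.62 in cKO cells (adjusted p = 0.19). Without non-stimulated control replicate 3 it was 1.67 in control cells (adjusted p = 0.035), and without non-stimulated cKO replicate 2 it was 2.05 in cKO cells (adjusted p = 0.022), so that 1 library decided the call in each genotype.

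Among the Jun genes, Junb and Jund moved in opposite directions. Jun (ENSMUSG00000052684), which encodes c-Jun, a strong activator, was at 14.9, 9.92 and 17.8 CPM in non-stimulated control cells and at 24.7, 27.7, 26.7, 28.6 and 26.4 CPM after stimulation. The cKO libraries were at 9.06, 11.9 and 7.49 CPM, and after stimulation at 25.9, 25.3, 35.7 and 20.1 CPM. No stimulated library overlapped a non-stimulated one of its genotype. On the log2 scale its change was 0.91 ± 0.19 in control cells (adjusted p = 7.5e-04) and 1.50 ± 0.21 in cKO cells (adjusted p = 1.3e-05).

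Junb (ENSMUSG00000052837) encodes JunB, a partner of BATF in helper T cells. It was at 167, 179 and 210 CPM in non-stimulated control cells and at 378, 337, 384, 288 and 296 CPM after stimulation. Levels in cKO cells lay at 161, 179 and 163 CPM, and after stimulation at 433, 329, 280.0 and 283 CPM. The groups did not overlap in either genotype. Its log2 fold change was 0.86 ± 0.14 in control cells (adjusted p = 6.5e-05) and 0.98 ± 0.15 in cKO cells (adjusted p = 2.4e-05).

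Jund (ENSMUSG00000071076) encodes JunD, which many resting cells express. It was at 189, 234 and 263 CPM in non-stimulated control cells and at 163, 143, 150 and 135 CPM in stimulated control replicates 1 to 4 and 127 CPM in replicate 5. In cKO cells it was at 183, 237 and 284 CPM, and after stimulation at 188, 134, 118 and 118 CPM. All stimulated control libraries were below all non-stimulated ones, whereas in cKO cells stimulated replicate 1 lay above non-stimulated replicate 1. This gave a log2 fold change of -0.67 ± 0.16 in control cells (adjusted p = 0.0022) and -0.75 ± 0.17 in cKO cells (adjusted p = 0.0013). With a replicate block within genotype, added after seeing the data, Jund lost its edgeR call in both genotypes (adjusted p = 0.095 and 0.057). That fit also left out stimulated control replicates 4 and 5 and stimulated cKO replicate 4 (135, 127 and 118 CPM). The effect of the block alone was not tested. Read per length, the TPM of Jund was 1.24 to 1.92 times that of Junb in the 6 non-stimulated libraries. In the 9 stimulated ones it was 0.429 to 0.516 times. Jund thus stood above Junb in each non-stimulated library and below it in each stimulated one.

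Batf (ENSMUSG00000034266), needed for the differentiation of several helper T cell types, was at 125, 114 and 140 CPM in non-stimulated control cells and at 174, 171, 205, 161 and 161 CPM after stimulation. The cKO libraries were at 108, 136 and 123 CPM, and after stimulation at 205, 165, 248 and 174 CPM. The groups did not overlap, though the rise was the smallest of the 7. Stimulation changed it by a log2 fold change of 0.47 ± 0.13 in control cells (adjusted p = 0.0052) and 0.70 ± 0.13 in cKO cells (adjusted p = 2.7e-04).

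Batf3 (ENSMUSG00000026630) is best known for its role in cross-presenting dendritic cells. It was at 8.14, 3.88 and 12.4 CPM in non-stimulated control cells and at 25.3, 21.3, 17.5, 11.5 and 18.7 CPM after stimulation. Levels in cKO cells lay at 7.08, 7.50 and 1.81 CPM, and after stimulation at 14.5, 14.0, 12.5 and 17.7 CPM. The control ranges overlapped, because stimulated replicate 4 lay below non-stimulated replicate 3, and the cKO ranges did not. On the log2 scale its change was 1.20 ± 0.42 in control cells (adjusted p = 0.028) and 1.44 ± 0.45 in cKO cells (adjusted p = 0.015). The control call was lost without non-stimulated control replicate 1 (adjusted p = 0.075), non-stimulated control replicate 2 (0.11) or stimulated control replicate 1 (0.055), and with no filter on low counts (0.066). Both calls were lost with a replicate block (edgeR adjusted p = 0.099 in control and 0.052 in cKO cells). The same held with a block within genotype (0.055 and 0.056), fitted without stimulated control replicates 4 and 5 and stimulated cKO replicate 4. Of the 6 dendritic cell markers, Clec9a and Siglech had 0 counts in each group and Xcr1 in all but stimulated control cells, and the summed level of all 6 was 3.11 to 6.10 CPM without stimulation and 5.10 to 8.20 CPM with it. Of the 3 that could be tested, 2 were called higher and 1 lower in both genotypes: in control cells the mean of Zbtb46 went from 0.346 to 3.28 CPM, that of Flt3 from 0.687 to 3.33 CPM and that of Itgax from 3.57 to 0.503 CPM. Their part in the Batf3 result was not tested.

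Atf3 (ENSMUSG00000026628), a stress-induced bZIP factor that pairs with Jun proteins, changed most. It was at 11.8, 6.10 and 21.2 CPM in non-stimulated control cells and at 118, 124, 95.01, 99.0 and 129 CPM after stimulation. In cKO cells it was at 5.09, 11.0 and 4.76 CPM, and after stimulation at 105, 116, 147 and 116 CPM. Every stimulated library was at least 95.01 CPM and no non-stimulated library was above 21.2 CPM. Its log2 fold change was 3.10 ± 0.37 in control cells, 8.60-fold (adjusted p = 1.4e-05), and 4.13 ± 0.40 in cKO cells, 17.5-fold (adjusted p = 2.5e-06).

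Read per length, Batf had the highest mean TPM of the 10 genes in all 4 groups and Fosb the lowest. In non-stimulated control cells the order was Batf (161 ± 10.4 TPM, SD, n = 3), Jund (143 ± 22.5), Junb (105 ± 10.6), Fosl2 (47.5 ± 10.4), Batf3 (15.03 ± 7.37), Atf3 (8.33 ± 3.70), Jun (4.24 ± 1.03), Fosl1 (1.88 ± 1.25), Fos (1.37 ± 0.421) and Fosb (0.318 ± 0.366). The neighbours Batf and Jund overlapped, as did each neighbouring pair from Batf3 down to Fos. The order was the same in non-stimulated cKO cells. In stimulated control cells it was Batf (244 ± 8.81 TPM, n = 5), Junb (209 ± 11.3), Jund (98.7 ± 6.69), Fosl2 (75.1 ± 13.4), Atf3 (74.2 ± 9.28), Batf3 (38.9 ± 10.7), Fosl1 (14.4 ± 1.12), Jun (8.93 ± 1.13), Fos (8.69 ± 1.45) and Fosb (0.407 ± 0.159). Here only Fosl2 with Atf3 and Jun with Fos overlapped. In stimulated cKO cells Atf3 stood above Fosl2 and the rest of the order was the same, with overlaps of Jund with Atf3, Atf3 with Fosl2 and Jun with Fos.

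The summed TPM of the 10 genes was 488 ± 57.2 in non-stimulated and 773 ± 17.02 in stimulated control cells, and 516 ± 70.5 and 758 ± 102 in cKO cells. Within that sum the Batf genes held 36.2 ± 2.79% before and 36.6 ± 0.808% after stimulation in control cells. The 3 Jun genes went from 51.7 ± 3.57% to 41.0 ± 1.86%, the 4 Fos genes from 10.4 ± 1.34% to 12.8 ± 1.91%, and Atf3 from 1.68 ± 0.586% to 9.59 ± 1.02%. Jund alone went from 29.2 ± 2.99% to 12.8 ± 0.76%. Stimulated cKO replicate 3 had the lowest sum of the stimulated libraries, 606 TPM against 751 to 827 in the others. In share of estimated counts it was close to the next library, at 0.103% against 0.104% in stimulated cKO replicate 4. These sums are descriptions with no test.

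None of the 10 genes was called between cKO and control cells. Of all genes, 0% were called higher and 0% lower in cKO than in control cells without stimulation, and 0% higher and 0.0064% lower after it, that 1 gene being Asb2. Without stimulation Asb2 itself was not called, at a log2 fold change of -0.94 ± 0.21 (edgeR unadjusted p = 3.3e-04). A missing call there does not show equal levels. At an unadjusted edgeR p under 0.05 there were 402 genes (2.57% of all tested) without stimulation and 283 (1.81%) after it. Of these, 2 and 0 were members. DESeq2 called 4 genes without stimulation and 5 after it, of which 0 were members. Without stimulation the 2 members were Jun, with a log2 fold change of -0.59 ± 0.22 (unadjusted p = 0.0146, adjusted p = 1, 95% interval -1.05 to -0.13), and Atf3, with -0.92 ± 0.40 (unadjusted p = 0.0376, adjusted p = 1, interval -1.79 to -0.06). Over the alternatives the Jun value was -0.79 (without non-stimulated control replicate 2) to -0.32 (limma on log2(TPM + 1)) and the Atf3 value -1.42 (without non-stimulated cKO replicate 2) to -0.37 (without non-stimulated control replicate 3), with adjusted p of 0.72 to 1. The cKO and control ranges overlapped for all 10 genes in both conditions. The share of all genes with such an overlap is not given here, so this is not a trait of the 10. After stimulation the log2 fold changes were from -0.36 (Batf3) to 0.18 (Batf), and the intervals were narrowest for Batf (-0.06 to 0.42) and Junb (-0.29 to 0.24) and widest for Fosb (-1.23 to 0.89).

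**Figure D2:**
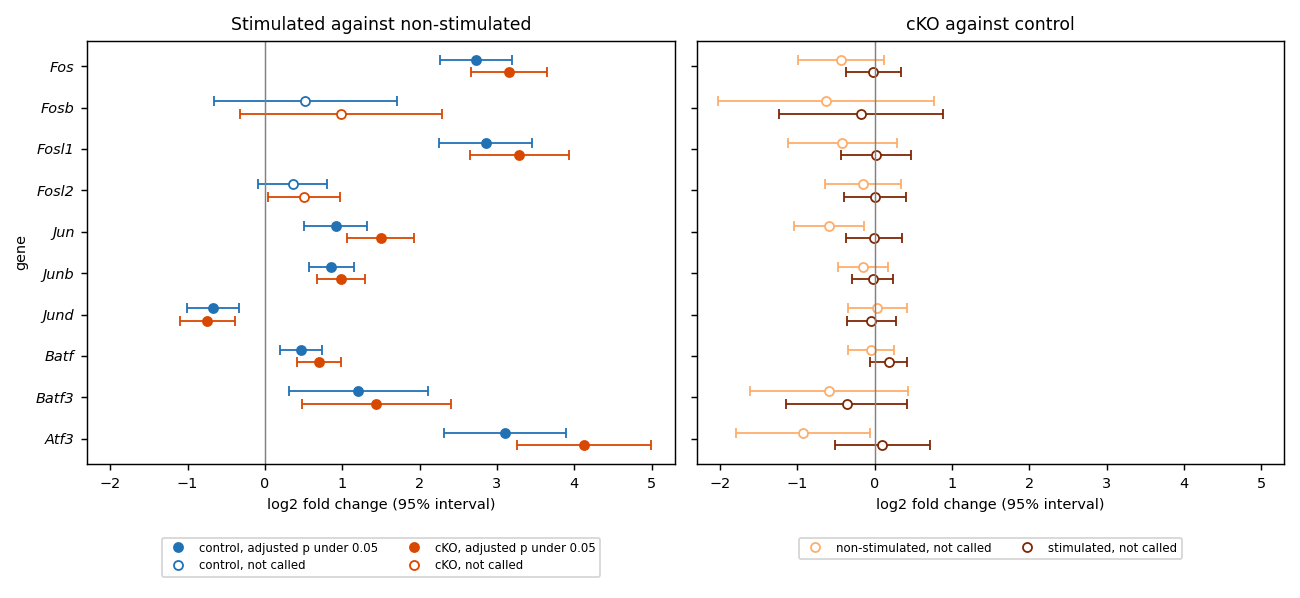
Log2 fold changes with 95% intervals from the edgeR model for stimulation in each genotype (left) and for cKO against control in each condition (right); filled points had an adjusted p under 0.05. On the left the 7 filled genes other than Jund lie above 0 and Jund below it in both genotypes, Fosb and Fosl2 lie above 0 unfilled, and on the right no point is filled.

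The difference between the stimulation responses of the genotypes was tested as an interaction, in which 0% of all genes were called higher and 0% lower. At an unadjusted edgeR p under 0.05 there were 605 genes (3.87% of all tested), 1 of them a member, and DESeq2 called 2 genes and 0 members. That member was Jun, whose response was 0.58 ± 0.27 larger on the log2 scale in cKO cells (unadjusted p = 0.0488, adjusted p = 0.997). For Atf3 the value was 1.02 ± 0.49 (unadjusted p = 0.0572, adjusted p = 0.997). Over the alternatives the Jun value was 0.22 to 0.78 and the Atf3 value 0.36 to 1.51, with adjusted p of 0.69 to 1.00. Both were lowest without non-stimulated control replicate 3 and stimulated cKO replicate 3 together, and highest without non-stimulated control replicate 2 for Jun and without non-stimulated cKO replicate 2 for Atf3.

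The non-stimulated libraries differed among themselves in the same direction across the members. Non-stimulated control replicate 3 was the highest of its 3 libraries for 10 of 10 members, where it was the highest for 38.6% of all genes tested. Non-stimulated cKO replicate 2 was the highest of its group for 9 of 10 members, all but Jund, where it was the highest for 32.2% of all genes. Against the median of the group, control replicate 3 was higher by 1.83 (Fosb), 1.28 (Fosl1), 0.85 (Atf3) and 0.61 (Batf3) on the log2 scale, and cKO replicate 2 by 1.80 (Fosb), 1.12 (Atf3), 0.84 (Fosl1) and 0.78 (Fos). Control replicate 3 was also the highest for 15 of 20 immediate early genes outside the family, and cKO replicate 2 for 11 of 20. The mitochondrial share was the lowest of its group in both, at 4.42% and 4.36%, against 4.59% to 5.15% in the other 4 non-stimulated libraries. Its part in these levels was not tested. Without control replicate 3 the log2 difference between the genotypes at rest changed sign for Fosb (0.51), Fosl1 (0.19), Fosl2 (0.07) and Batf (0.03).

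**Figure D3:**
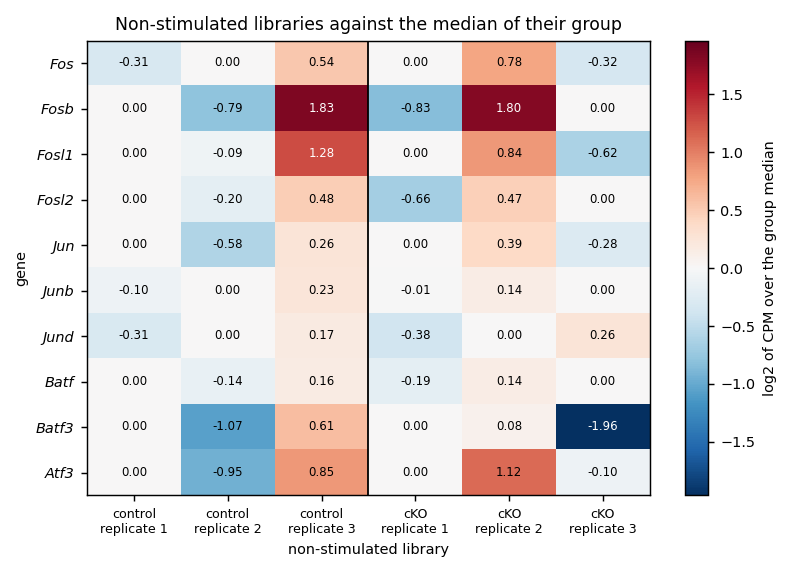
Log2 of CPM over the median of the group for each gene (rows) in the 6 non-stimulated libraries (columns); red is above and blue below the group median, and the middle library of each group is 0. Control replicate 3 is red in all 10 rows and cKO replicate 2 in 9 rows, most strongly for Fosb at 1.83 and 1.80.

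Lists of genes taken to act on or with AP-1 were read, and whether each gene does so was not tested. The lists were also chosen with earlier results of these data known. Their counts stand beside 25.4% of all genes called higher and 25.2% lower in control cells, and 26.7% and 27.1% in cKO cells. Of 30 genes tested on the list of other bZIP genes, which includes Cebpz, 12 rose and 4 fell in control cells (median log2 change 0.25, against 0.00 for all genes), and 15 rose and 4 fell in cKO cells. The 3 with the smallest p were Maff, a small Maf protein (1.49 ± 0.553 to 7.28 ± 0.694 CPM, log2 fold change 2.26 ± 0.22, edgeR adjusted p = 1.9e-07), Dbp, a clock-controlled factor (12.4 ± 1.94 to 3.33 ± 0.726 CPM, -1.89 ± 0.19, adjusted p = 2.7e-07), and Cebpz (0.52 ± 0.08, adjusted p = 2.5e-05), which despite its name encodes a protein without a bZIP domain. Of 34 upstream kinases and adaptors, 9 rose and 10 fell in control cells and 11 and 11 in cKO cells, near the shares over all genes. Rasgrp1, which activates Ras below the T cell receptor, fell by 1.64 ± 0.09, and Prkcq, which encodes protein kinase C theta, fell by 1.18 ± 0.09, while Malt1, which encodes a paracaspase, rose by 1.44 ± 0.11 (adjusted p = 1.8e-10, 1.1e-08 and 1.6e-08).

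The list of SRF and ternary complex factors also holds Mrtfa, Mrtfb and MEF2 genes. Of its 9 genes, 1 rose and 5 fell in each genotype, with a median of -0.66 in control cells. Mrtfa fell by 0.76 ± 0.09, Mef2d by 0.88 ± 0.10 and Mef2a by 1.05 ± 0.13. Of the 10 genes on the list of partners at composite sites, 3 rose and 4 fell in control cells and 3 and 5 in cKO cells. That list includes Nfat5, whose pairing with AP-1 was not tested. Nfat5, a Rel-related factor that does not need calcineurin, went from 184 ± 7.25 to 795 ± 121 CPM (log2 fold change 2.11 ± 0.13, adjusted p = 1.3e-09), Ets1 fell by 0.79 ± 0.08 and Ets2 rose by 1.20 ± 0.13. Of the 17 genes on the list of regulators of AP-1 protein or its kinases, which includes Nfkbia, 8 rose and 0 fell in control cells. In cKO cells 12 rose and 0 fell. The 3 with the smallest p were Nfkbia, the NF-kappaB inhibitor (43.6 ± 16.1 to 242 ± 7.22 CPM, 2.47 ± 0.18), and the MAP kinase phosphatase genes Dusp2 (1.46 ± 0.17) and Dusp6 (1.62 ± 0.23).

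Of 21 T cell genes with known AP-1 or BATF sites, 16 rose and 4 fell in control cells and 16 and 3 in cKO cells. Their median log2 change in control cells was 2.06. The eosinophil cytokine gene Il5 went from 3.43 ± 1.00 to 1035 ± 136 CPM (8.22 ± 0.29, adjusted p = 1.1e-11), Il21 from 1.49 ± 0.892 to 186 ± 29.4 CPM (6.98 ± 0.38), and Cd40lg, which encodes CD40 ligand, from 21.0 ± 1.59 to 87.9 ± 10.9 CPM (2.06 ± 0.14). Of 20 immediate early genes outside the family, which include Maff again, 15 rose and 4 fell in control cells and 15 and 3 in cKO cells. Egr3 went from 12.4 ± 2.32 to 157 ± 15.9 CPM (3.66 ± 0.16, adjusted p = 2.0e-11), while Btg2, an antiproliferative gene, fell by 1.16 ± 0.10. No gene of these 7 lists was called by edgeR between the genotypes or in the interaction.

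For each member the gene with the most similar pattern over the 4 group means of log2 CPM was sought among 9500 genes outside the 10, by the root mean square difference after centring. The nearest was Gja1 for Fos (0.04), Serpine2 for Fosb (0.06), Plscr1 for Fosl1 (0.02), Dis3l for Fosl2 (0.0047), Zbtb10 for Jun (0.04), Blzf1 for Junb (0.0037), Tmem251 for Jund (0.009), Txnl4b for Batf (0.0062), Paqr3 for Batf3 (0.04) and Dlg2 for Atf3 (0.10). Within the 10, Fos and Fosl1 were nearest to each other, at 0.08. With only 4 points such likeness is a description.

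The ratio of estimated count to TPM is proportional to the effective length of a gene in a library, which its mix of transcripts can change. It does not measure that mix alone. Jund has 1 transcript in the GENCODE M21 annotation, yet its log2 ratio, centred on each library's median, ran from -0.546 to -0.502. The ratio was tested with limma for 9 members, all but Fosb, whose counts were too low, and 0 of the 9 were called in either genotype. Over 12616 genes in control cells, 0.349% were called longer and 0.46% shorter after stimulation, and in cKO cells 1.24% and 1.02%. Fosl2 had the smallest p, with a log2 difference of -0.13 ± 0.03 in control cells (adjusted p = 0.061) and -0.10 ± 0.03 in cKO cells (adjusted p = 0.14). In Fos the difference was 0.24 ± 0.09 in control cells (adjusted p = 0.39). In the GENCODE M21 annotation Fosl2 has 3 transcripts of 1707 to 6537 bases.

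By RefSeq order, Jdp2, another bZIP gene, is the only protein-coding gene between Fos and Batf, and Fam71a the only one between Batf3 and Atf3. In GENCODE M21 a gene on the other strand overlaps Fosl1 (Ccdc85b), Jun (Junos), Junb (Prdx2), Jund (Gm11175) and Atf3 (Gm24748). The kit kept strand, per the labels' protocols, but the strand setting of the counting is not given in the sources used here, so the share of reads from those partners in these 5 genes was not tested.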

How the data were processed

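RNA from 15 libraries was measured with a stranded total RNA kit with removal of ribosomal RNA, per the labels' protocols. The submitters' processing notes name Salmon 1.10.1, STAR 2.7.9a, cutadapt 3.4 and the build GRCm39; the role of each and the annotation are not given in the sources used here. The authors deposited estimated counts per gene, unscaled between libraries, and TPM, scaled by length and within each library. The estimated counts were rounded and filtered with filterByExpr (15619 of 56748 genes kept). They were scaled by TMM and fitted in R 4.3.3 with edgeR 4.0.16 (quasi-likelihood, robust, 1 mean per group, all 15 libraries), adjusted by Benjamini-Hochberg over all genes tested and called at 0.05, two-sided. Differences in effective length used limma 3.58.1 on log2(estimated count / TPM) over genes with at least 10 counts in every library. The samples were grouped by the labels.

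The 10 members and all lists were chosen with earlier results of these data known. Named were the members, Asb2, the 3 genes of each list with the smallest p after stimulation of control cells, any list gene called between genotypes, and the nearest pattern to each member with at least 5 CPM; marker genes, and genes named only for a position or an overlap, fall outside that rule. Marker lists were also read, with summed CPM without and then with stimulation: CD8 T or NK cell 42.7 to 153 and 15.8 to 55.2, B cell 1.50 to 5.35 and 1.07 to 7.07, dendritic cell 3.11 to 6.10 and 5.10 to 8.20, macrophage or monocyte 11.4 to 20.6 and 2.87 to 6.56, neutrophil 5.53 to 12.0 and 0.798 to 1.27, mast cell or basophil 3.43 to 14.9 and 0.173 to 1.35, endothelial or stromal cell 175 to 205 and 45.8 to 78.8, the last mostly Pecam1. Called lower after stimulation in both genotypes were 2 of 5, 0 of 4, 1 of 3, 1 of 2, 1 of 1, 1 of 1 and 3 of 3 of the genes tested on these lists, and 2 dendritic cell markers were called higher; their part in the members' changes was not tested. Alternatives were DESeq2 1.42.0, relative log expression factors, no filter or 1 CPM in 3 libraries, only the groups compared, a replicate block, limma on log2(TPM + 0.1) or log2(TPM + 1), a length minimum of 50 counts and leaving out each library. Added after seeing the data were a replicate block within genotype and leaving out non-stimulated control replicate 3 together with stimulated cKO replicate 3. The block within genotype was fitted on replicates 1 to 3 of each group alone. The depth, 17.1 to 24.2 M counts, limits Fosb most. The model was tested on simulated data. Protein sequences were not analysed here. Intervals cover the spread between libraries as modelled.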

Additional observations from a re-analysis of the deposited data

Results flagged for a closer look

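In 4 of the 20 sets of values tested (10 genes in the 2 stimulated groups), 1 library stood far from the rest of its group; chance does so in about 1 in 20. In stimulated cKO replicate 4, Fos was at 12.958 CPM where the other 3 libraries were at 15.8 to 16.3 CPM. In the same library Fosb was at 1.77433 CPM where the other 3 were at 0.924 to 1.07 CPM. Fosl2 was at 226.483 CPM in stimulated control replicate 1, where the other 4 libraries were at 294 to 314 CPM. Batf was at 204.973 CPM in stimulated control replicate 3, where the other 4 were at 161 to 174 CPM.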

How the results depend on the processing

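Over 250 alternative values for the 10 genes in control cells after stimulation, 238 kept direction and call. Another 7 lost and 5 gained a call, and 0 changed sign. In cKO cells it was 242, 3, 5 and 0 of 250. These values include fits without a library of the other genotype, which bears on the comparison only through the shared fit. Deviations of same-numbered libraries had correlations of -0.20 to 0.18, with 3 of 19 pairs above 0.1. Between non-stimulated and stimulated libraries these were 0.08, 0.10 and 0.11 in cKO cells and 0.08, -0.14 and -0.20 in control cells. With groups this small they cannot show whether the numbers pair libraries, and the labels do not say. The numbers were not taken to pair the libraries. With the replicate block Batf3 lost its call in control cells (log2 fold change 1.21, adjusted p = 0.099) and in cKO cells (1.52, 0.052). The block within genotype was fitted on replicates 1 to 3 of each group alone. With it 0 members were called lower in either genotype (Jund, -0.57, edgeR adjusted p = 0.095 and -0.66, 0.057). Batf3 was not called (0.055 and 0.056), Fosl2 was called in cKO cells (0.65, 0.038) and 1 gene was called higher in the interaction.

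On TPM the median of all genes after stimulation was shifted to 0.14 in control and -0.09 in cKO cells with 0.1 added, and to 0.11 and -0.06 with 1 added. Control calls were then 3754 higher and 2108 lower, or 2117 lower with 1 added (64.0% and 63.6% higher, against 50.2% on counts), and cKO calls were 2583 and 2526 higher and 3443 and 3488 lower (42.9% and 42.0% higher, against 49.7% on counts). The cause was not tested. Between the genotypes without stimulation, DESeq2 called 1 gene higher and 3 lower, no filter 1 lower, log2(TPM + 1) 3 higher, leaving out each library 0 to 1 lower (1 without non-stimulated control replicate 3 or stimulated cKO replicate 3) and leaving out non-stimulated control replicate 3 and stimulated cKO replicate 3 together 1 lower. After stimulation DESeq2 called 1 higher and 4 lower. In the interaction DESeq2 called 2 higher and log2(TPM + 1) 2 lower. Called length differences among members were 0 to 1 in each genotype when each library was left out (1 without stimulated control replicate 3 in control cells and 1 without non-stimulated cKO replicate 1 in cKO cells).

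No member was called between the genotypes or in the interaction under any alternative, and 16, 31 and 21 of 240 such values changed sign without stimulation, after it and in the interaction. Without stimulation, on TPM with 0.1 and 1 added, Junb was 0.0172 and 0.017 and Batf 0.109 and 0.108; without 2 libraries together Batf was 0.0267, Fosb 0.504, Fosl1 0.183 and Fosl2 0.0685. Leaving out each library gave Batf -0.133 to 0.0338, Jund -0.12 to 0.19, Fosb -1.69 to 0.51, Fosl1 -0.89 to 0.19 and Fosl2 -0.45 to 0.10. After stimulation, TPM gave Fosl1 -0.0582 and -0.0535, Fosl2 -0.0851 and -0.0839 and Atf3 -0.00555 and -0.00544, the replicate block Fos 0.0291, and leaving out 2 libraries together Atf3 -0.014, Junb 0.0452 and Jund 0.0263. Leaving out each library gave Fos -0.0783 to 0.0624, Fosl2 -0.0658 to 0.0721, Atf3 -0.0152 to 0.158, Junb -0.18 to 0.0545, Jund -0.219 to 0.0413, Jun -0.18 to 0.113 and Fosb -0.407 to 0.0308. In the interaction, TPM gave Fosl2 -0.0709 and -0.0712, Junb -0.129 and -0.128 and Batf -0.0197 and -0.0195; without 2 libraries together Fosl2 was -0.0421, Fosb -0.63, Fosl1 -0.17 and Batf3 -0.15, and the replicate block within genotype gave Batf3 -0.00812. Leaving out each library gave Fosl2 -0.0929 to 0.455, Junb -0.0344 to 0.198, Jund -0.255 to 0.0827, Fosb -0.68 to 1.52, Fosl1 -0.17 to 0.90 and Batf3 -0.22 to 0.57. The cause of these changes was not tested.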
